A study of Mus musculus with 6 samples.

Results

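Cytochrome P450 enzymes are heme-containing monooxygenases. Most sit in the endoplasmic reticulum and take electrons from P450 oxidoreductase, whereas a few sit in mitochondria and take them from ferredoxin and ferredoxin reductase. They oxidize drugs and other foreign compounds, and they also make or break down cholesterol, bile acids, steroid hormones, vitamin D, retinoic acid and fatty acid derivatives. In adipose cells, members of the family handle retinoids, sterols and fatty acids, and Cyp1b1 is a well known gene of preadipocytes and other mesenchymal cells.

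The family was taken by gene symbol, as all genes named Cyp with a family number, a letter and a member number, together with Cyp51. This gave 95 genes of the 45706 in the count table, and 21 further Cyp symbols (pseudogenes, an antisense gene and members whose symbol ends in a letter) fell outside it. The family was chosen by the counts of 1 member in the same comparison, Cyp2e1, which were above 0 in every RBMS1 knockdown sample and 0 in every scrambled control. The difference of Cyp2e1 is therefore given as a description without a test.

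RNA was sequenced from 3T3-L1 cells, a mouse embryonic fibroblast line used as a model of adipocyte differentiation, 3 samples with a scrambled control shRNA (genotype WT in the labels) and 3 with an Rbms1 shRNA (genotype RBMS1KD). Both groups were made with lentivirus, according to the study's methods with puromycin selection of the knockdown cells, and no single clone is described. All 6 samples received the adipogenic cocktail of IBMX, insulin, dexamethasone and rosiglitazone and were harvested on day 7. The labels name the cell type as fibroblast, the origin of the line. The study's methods call the 3 samples of a group biological replicates, and nothing says whether they came from separate transductions, so p-values measure the spread between these samples. Values are listed in the order of replicates 1, 2 and 3 of each group, with the scrambled control first.

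Estimated counts per library summed to between 3142695 and 11073098, and scrambled control replicate 2 was the smallest. Genes derived from ribosomal RNA took 43.0% of its counts and between 8.12% and 17.8% in the other libraries. Levels are given in CPM, counts scaled by the library size times its TMM factor. A gene without a count in a library could still lie as high as 3 counts, which is 0.220 CPM in the largest and 1.49 CPM in the smallest library. Such limits and the intervals further on cover counting error alone. Rbms1, the targeted gene, had 113, 102 and 99.6 CPM in the controls and 49.2, 61.4 and 84.0 CPM in knockdown cells. With TMM factors it was lower in every knockdown sample (log2 fold change -0.69, standard error (SE) 0.20), and edgeR's quasi-likelihood test gave it an adjusted p of 0.185. With library sizes alone the groups overlapped, at 118, 65.3 and 97.0 CPM against 55.5, 67.3 and 103.6 CPM (log2 fold change -0.31). Library sizes keep the counts from ribosomal RNA. The TMM factor was 0.642 for scrambled control replicate 2 and 0.974 to 1.23 for the other libraries. Levels of control replicate 2 are thus lower with library sizes alone. On that scale 26.1% of all tested genes were higher in knockdown cells without overlap and 1.54% lower. With TMM factors these shares were 8.96% and 9.55%. Comparisons with library sizes alone below share this tilt, whose cause was not tested.

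The labelled cells were checked against marker genes. All 10 adipocyte markers (among them Pparg, Adipoq, Fabp4 and Plin1) and all 10 fibroblast or preadipocyte markers (among them Col1a1, Dcn and Pdgfra) were detected in these samples. Summed adipocyte marker levels ranged from 23261 to 26442 CPM in the scrambled control and from 11981 to 21723 CPM in knockdown cells. The 10 tested adipocyte markers all had log2 fold changes below 0 (median -0.42, against 0.0044 for all tested genes), and 0 of them passed an adjusted p of 0.1 by edgeR, with 2 at an unadjusted p under 0.05, 3 without overlap between the groups, all lower in knockdown cells, and 1 called by DESeq2. Over all tested genes the unadjusted p was under 0.05 for 12.4%, 9.55% were lower without overlap, and DESeq2 called 3.22% of those to which it gave an adjusted p. With library sizes alone in place of TMM factors, Pparg turned to 0.080, and with chromosome medians subtracted Fabp4 turned to 0.17. The 10 fibroblast markers summed to 10478 to 11905 CPM in the controls and to 5815 to 13021 CPM in knockdown cells. Of these, 8 had log2 fold changes below 0 (median -0.29), 4 did not overlap between the groups, all lower in knockdown cells, 4 had an unadjusted p under 0.05 by edgeR and 3 were called by DESeq2. The 1 called by edgeR was Lum, a collagen-binding proteoglycan, which fell (log2 fold change -1.92, SE 0.29, adjusted p = 0.0333 by edgeR's quasi-likelihood test). Of 6 muscle markers, 2 were detected and tested, and the 6 summed to 39.7 to 43.8 CPM in the controls and 20.0 to 34.1 CPM in knockdown cells. Acta1, the skeletal muscle actin, fell (log2 fold change -4.06, SE 0.41, adjusted p = 0.0116 by edgeR's quasi-likelihood test), and Des, the muscle intermediate filament, had overlapping groups. Of 8 macrophage markers 2 were detected and of 6 endothelial markers 1, and neither list summed to more than 7.93 CPM in any library. None of 10 hepatocyte markers was detected, and Alb, Ttr and the other 8 summed to at most 0.321 CPM in any library. In these bulk samples, fewer cells of a type and less RNA per cell cannot be told apart, and the part of these marker differences in the values below was not tested.

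The coding sequences of most members hold a feature of P450 proteins, which their shared names already imply. A reading frame with the P450 heme-binding signature, whose cysteine holds the heme iron, was found in the coding sequence of 90 of the 95 genes and in 25 of the 26 detected ones. Its cysteine codon lay between 84.0% and 89.9% of the way along the coding sequence, and it was TGC in 53 genes and TGT in 37. In Cyp2e1 it was codon 437 of 493, in Cyp2f2 codon 436 of 491, in Cyp2c55 codon 435 of 490, in Cyp1b1 codon 470 of 543 and in Cyp51 codon 449 of 503. The exception among the detected genes was Cyp20a1, and the other 4 genes without a match were Cyp2b10, Cyp2s1, Cyp3a59 and Cyp8b1. The search took a strict form of the signature (F..G...C.G in amino acid letters, a dot for any) in the longest coding sequence of each gene. Whether the genes without a match hold a variant of it, or another isoform with it, was not tested. The coding bases of the signature, from the GENCODE M21 transcripts (GRCm38), are shown for the 7 genes on which most of the results below turn, with the cysteine codon in capitals.
Cyp2e1: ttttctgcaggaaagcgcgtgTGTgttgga
Cyp2f2: ttttcggctggacgtcgactgTGTctggga
Cyp2c55: ttctcaataggaaagcgaatgTGCgtggga
Cyp2j6: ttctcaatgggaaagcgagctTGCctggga
Cyp4v3: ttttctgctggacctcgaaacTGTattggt
Cyp1b1: ttctcagtgggcaaacggaggTGCatcggt
Cyp51: tttggagctgggcgtcatcgtTGTgttgga

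For the same reason the 250 bases before the RefSeq start site (build GRCm38.p6) are shown for the gene seen only in knockdown cells and for the pair of genes called by the test. Each lies on the plus strand, Cyp2e1 at chr7:140763569-140763818, Cyp2f2 at chr7:27119705-27119954 and Cyp2c55 at chr19:39006769-39007018. The bases nearest the start can fall inside a first exon of the GENCODE annotation, whose Cyp2e1 gene starts at 140763739 and whose Cyp2f2 gene starts at 27119909. Capitals mark the TATA box (TATAAA) and the CCAAT box (CCAAT, which reads ATTGG on the other strand), both searched on both strands.
Cyp2e1: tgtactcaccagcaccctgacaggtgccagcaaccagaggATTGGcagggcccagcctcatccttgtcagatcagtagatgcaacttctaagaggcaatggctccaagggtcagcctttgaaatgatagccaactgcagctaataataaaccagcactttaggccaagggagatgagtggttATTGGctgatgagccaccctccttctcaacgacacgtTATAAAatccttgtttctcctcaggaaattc
Cyp2f2: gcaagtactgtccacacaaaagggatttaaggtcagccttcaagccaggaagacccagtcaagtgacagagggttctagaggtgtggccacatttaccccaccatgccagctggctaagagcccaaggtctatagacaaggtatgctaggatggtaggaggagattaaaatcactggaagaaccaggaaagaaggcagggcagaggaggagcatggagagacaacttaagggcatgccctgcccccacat
Cyp2c55: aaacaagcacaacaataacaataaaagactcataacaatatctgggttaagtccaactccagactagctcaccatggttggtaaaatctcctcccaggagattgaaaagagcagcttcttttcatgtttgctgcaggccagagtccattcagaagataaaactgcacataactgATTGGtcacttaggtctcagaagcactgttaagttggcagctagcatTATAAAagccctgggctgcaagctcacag

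TATAAA was present in 28 of the 84 windows held for 74 members, and in 12.4% of all 32851 windows in the table. CCAAT was present in 36 of the 84 windows and in 33.8% of all windows. Both motifs occurred before Cyp2e1 and Cyp2c55, and neither occurred before Cyp2f2. The core of the aryl hydrocarbon response element (GCGTG), searched in the same way, occurred in 17 of the 84 windows and in 28.2% of all windows. It was present before Cyp1b1 and Cyp51 and not before Cyp2e1, Cyp2f2 or Cyp2c55. These letters are a description of the windows and mark no binding site.

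A member was called detected with 3 or more counts in at least 2 samples, which held for 26 of the 95 genes. Of the other 69, 58 had no count in any library and 11 had a count but stayed under that level. In family 2, which holds most enzymes of foreign compounds in the liver, 10 of 49 genes were detected. Family 4, the fatty acid hydroxylases, had 6 of 17 detected, and family 3, the drug-metabolizing Cyp3a genes, had 0 of 7. None of the 6 genes of steroid hormone synthesis was detected. Cyp11a1, which starts that pathway from cholesterol, came nearest with 4, 2 and 2 counts in knockdown cells and 0 in each control. The number of members with a count was 25, 21 and 24 in the controls and 30, 28 and 33 in knockdown cells. The smallest library had the fewest such members and the largest library the most. The genes just inside the level, with 3 or more counts in exactly 2 samples, were Cyp26a1, Cyp27a1, Cyp2d22, Cyp4b1 and Cyp4f18. Those just outside, with 3 or more counts in 1 sample, were Cyp4f14, Cyp11a1, Cyp2b13, Cyp2b23 and Cyp3a57.

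Of the 26 detected genes, 17 passed edgeR's filter on low counts and were part of the fit over 11440 genes. A pair of genes carried most of the signal of the family. Cyp51 and Cyp1b1 together made up between 68.0% and 72.7% of the summed CPM of all members in each of the 6 libraries. That sum was 680, 682 and 721 CPM in the controls and 641, 565 and 576 CPM in knockdown cells. Every knockdown sample was below every control in this sum with TMM factors. With library sizes alone the groups overlapped, at 710.4, 438 and 702 CPM against 724, 620.2 and 710.2 CPM.

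**Figure D1:**
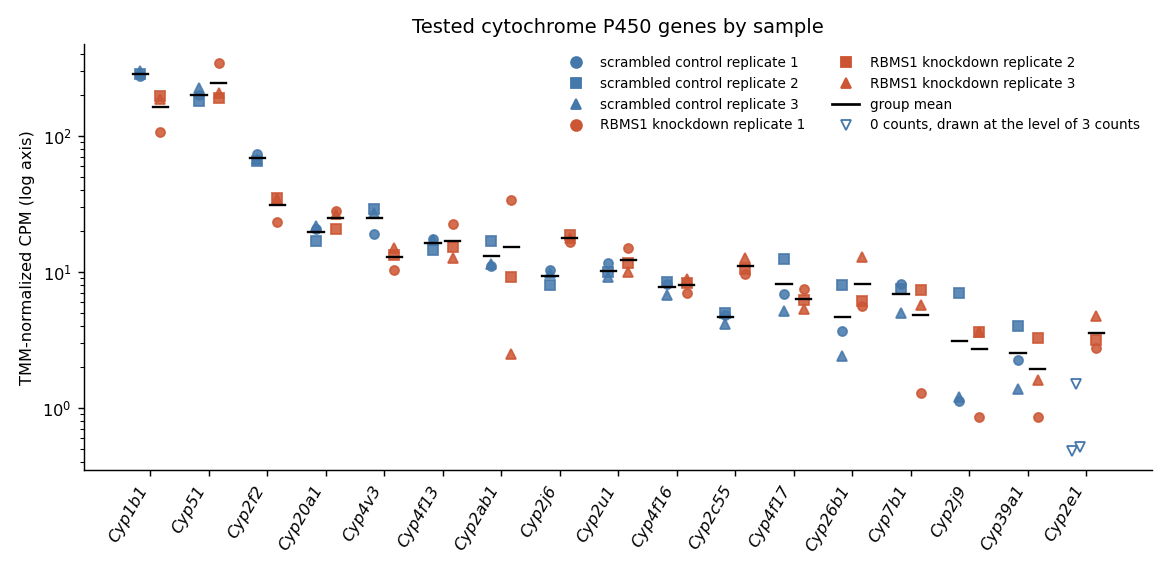
TMM-scaled CPM (log axis) of the 17 tested P450 genes, ordered by mean level, with 1 point per sample (blue: scrambled control, orange: RBMS1 knockdown, marker shape: replicate) and a black bar at each group mean. Open triangles stand for the controls of Cyp2e1, which had 0 counts, at the level of 3 counts. Cyp1b1 and Cyp2f2 lie lower in all 3 knockdown samples, and Cyp2ab1 spreads from 2.50 to 33.6 CPM among them.

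Cyp2e1 (ENSMUSG00000025479, chromosome 7, 140763739 to 140774987 on GRCm38, plus strand) encodes an enzyme that oxidizes ethanol and acetone. Its 19, 27 and 64 counts in knockdown cells correspond to 2.73, 3.16 and 4.70 CPM, and the mean was 3.53 ± 1.03 CPM (SD, n = 3). The 3 scrambled controls had 0 counts, which allows up to 0.481, 1.49 and 0.516 CPM in replicates 1, 2 and 3. The lowest knockdown sample thus stood above the highest of these limits, and on the mean of the limits knockdown cells had a level at least 4.26-fold higher. That bound was 7.08-fold without scrambled control replicate 2, the smallest library, 3.52-fold without control replicate 1 and 3.58-fold without control replicate 3. Per kilobase of exon the mean level in knockdown cells was 1.64 CPM, while Cyp51 had 55.7 on the same scale. Of the 31-base words in its transcripts, 5.83% also occurred in transcripts of other genes, and Fcho2 was the gene that shared the most. For the 15 tested genes within 500 kb the median log2 fold change was 0.021, and edgeR called 0 of them. Among all 14339 genes detected by the same rule, 105 (0.732%) had no count in any control and 30 (0.209%) had none in any knockdown sample.

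Outside Cyp2e1, 16 members were tested, 10 with a log2 fold change above 0 and 6 below, with a median of 0.0985 against 0.0044 for all 11440 tested genes. A gene was called where edgeR's quasi-likelihood test gave an adjusted p no higher than 0.1. This held for 2 of the 16 and for 1.22% of all tested genes. Cyp2c55 was called higher, as were 0.315% of all tested genes, and Cyp2f2 lower, as were 0.909%. Cyp2f2 alone was also under 0.05, as were 0.463% of all tested genes. The groups did not overlap for 5 of the 16 (Cyp2f2, Cyp1b1 and Cyp4v3 lower, Cyp2c55 and Cyp2j6 higher), against 18.5% of all tested genes (8.96% higher and 9.55% lower). DESeq2 called these 5 of the 16, and among the genes to which it gave an adjusted p it called 3.22% (1.09% higher and 2.13% lower). With library sizes alone in place of TMM factors, 0 of the 16 had all knockdown samples below the controls, against 1.54% of all tested genes, and 5 had them all above (Cyp2c55, Cyp2j6, Cyp20a1, Cyp26b1 and Cyp2u1), against 26.1%. Both genes called by edgeR belong to family 2.

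**Figure D2:**
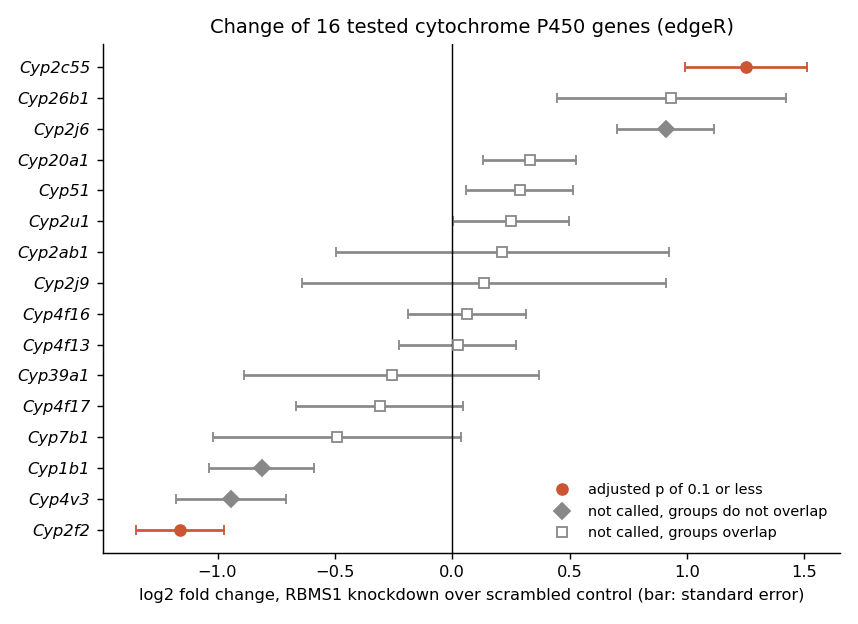
log2 fold change of RBMS1 knockdown over scrambled control for the 16 tested P450 genes other than Cyp2e1, from edgeR, with standard errors as bars. Cyp2f2 at -1.16 and Cyp2c55 at 1.25 are the called genes (orange), and grey diamonds mark Cyp1b1, Cyp4v3 and Cyp2j6, whose samples did not overlap between the groups but which were not called.

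Cyp2f2 (ENSMUSG00000052974, chromosome 7, 27119909 to 27133660), known for the oxidation of naphthalene in airway club cells, ranked behind Cyp51 and Cyp1b1 in mean CPM. Its levels were 73.1, 65.0 and 68.0 CPM in the controls and 23.3, 34.7 and 34.3 CPM in knockdown cells. The lowest control stood well above the highest knockdown sample, and knockdown replicate 1 was the lowest. The mean fell from 68.7 ± 4.09 to 30.8 ± 6.48 CPM (SD, n = 3 in each group). The log2 fold change was -1.16 (SE 0.19, adjusted p = 0.0399 by edgeR's quasi-likelihood test), or a 2.23-fold lower level. With library sizes alone in place of TMM factors, which raised the median of all genes by 0.37, the log2 fold change was -0.79 and was not called (adjusted p = 0.258 by edgeR), and control replicate 2, at 41.8 CPM on that scale, was within the range of the knockdown samples. Leaving out any 1 sample kept it between -1.24 and -0.99. The call was lost without scrambled control replicate 1, 2 or 3 (adjusted p = 0.141, 0.152 and 0.175 by edgeR) and without RBMS1 knockdown replicate 2 (0.117). None of its 31-base words occurred in another gene. An annotated gene on the other strand, Gm15883, overlaps 274 bases of its exons and had 0 counts in every library. For the 17 tested neighbours within 500 kb the median log2 fold change was -0.024, and edgeR called 0 of them.

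Cyp2c55 (ENSMUSG00000025002, chromosome 19, 39007019 to 39042693), an arachidonic acid hydroxylase, rose in knockdown cells. It had 4.81, 4.96 and 4.13 CPM in the controls and 9.63, 10.5 and 12.7 CPM in knockdown cells, from 30, 10 and 24 and from 67, 90 and 173 counts. Each knockdown sample was close to 10 CPM or above it, while no control reached 5. The means were 4.63 ± 0.444 and 10.95 ± 1.58 CPM (SD, n = 3 in each group), and the log2 fold change was 1.25 (SE 0.26, adjusted p = 0.0843 by edgeR's quasi-likelihood test), or 2.38-fold. Leaving out any 1 sample kept it between 1.13 and 1.34. The call remained without RBMS1 knockdown replicate 1 (adjusted p = 0.0440 by edgeR), a fit in which 5.94% of all tested genes were called. The other fits with a sample left out called 0.101% to 0.997%. The call of Cyp2c55 was lost without controls 1, 2 or 3 (0.214, 0.252 and 0.304) and without knockdown replicates 2 or 3 (0.230 and 0.182). It was also lost after the median of its chromosome was subtracted in every sample (log2 fold change 1.15, adjusted p = 0.159 by edgeR). That median was 0.11 for the log2 fold changes of chromosome 19. The related gene Cyp2c70 had too few counts for the fit, with 2, 0 and 3 in the controls and 14, 13 and 14 in knockdown cells. It passed the detection rule only through its knockdown samples, so no ratio is given. Cyp2c44, also of that subfamily, had 9, 2 and 9 counts against 20, 11 and 9. Its ratio per unit of TMM-scaled library size was 0.966 (95% exact binomial interval 0.551 to 1.74, counting error only). With library sizes alone the ratio was 1.21 (interval 0.689 to 2.18).

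Cyp1b1 (ENSMUSG00000024087, chromosome 17, 79701537 to 79715061), which oxidizes estrogens and polycyclic aromatic hydrocarbons and is induced by the aryl hydrocarbon receptor, was the most abundant member in the scrambled control. It had 276, 284 and 299.7 CPM in the controls and 106, 196 and 187 CPM in knockdown cells. The controls lay within a narrow range and each knockdown sample lay below it, knockdown replicate 1 far below the other two. The log2 fold change was -0.81 (SE 0.22), and the adjusted p of 0.166 by edgeR did not reach the threshold, while DESeq2 gave 0.0360. Without RBMS1 knockdown replicate 1 the log2 fold change was -0.57 and was called (adjusted p = 0.0643 by edgeR), as were 5.94% of all tested genes. It was -0.43 with library sizes alone, and the groups then overlapped. Over all alternatives its adjusted p ranged from 0.0360 by DESeq2 to 0.456 by edgeR.

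Cyp51 (ENSMUSG00000001467, chromosome 5, 4081145 to 4104746), the lanosterol demethylase of cholesterol synthesis, had 199.9, 180.2 and 224 CPM in the controls and 341, 189.8 and 207 CPM in knockdown cells. Only knockdown replicate 1 stood outside the range of the controls. Akap9 on the other strand overlaps 166 bases of the Cyp51 exons and had 454, 253 and 450 counts in the controls and 594, 656 and 822 in knockdown cells. Since the strand setting of the counting is not stated, the part of Akap9 reads in the Cyp51 values was not tested. The log2 fold change of Cyp51 was 0.29 (SE 0.23, adjusted p = 0.662 by edgeR), and without knockdown replicate 1 it was -0.015. Per kilobase of exon, Cyp1b1 and Cyp51 had similar levels in the scrambled control, at 47.2, 48.6 and 51.3 against 45.3, 40.8 and 50.8 CPM. In knockdown cells Cyp1b1 had 18.2, 33.6 and 32.0 CPM per kilobase and Cyp51 had 77.3, 43.0 and 46.9. The ratio of these levels within a library, which does not depend on the scaling between libraries, was 1.04, 1.19 and 1.01 in the controls and 0.235, 0.782 and 0.684 in knockdown cells. It was above 1 in every control and below 1 in every knockdown sample. Where the value of 1 falls depends on the exon lengths used. The groups did not overlap for 18.5% of single tested genes, and the share of gene pairs that separate as well was not computed. Neither gene was called by edgeR. Cyp2f2 ranked behind Cyp1b1 and Cyp51 per kilobase of exon in the controls, at 36.1, 32.1 and 33.6 CPM per kilobase. Its highest control was below the lowest control value of Cyp51.

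Among the genes of fatty acid and eicosanoid metabolism, Cyp2j6, of the arachidonic acid epoxygenase subfamily, had 10.3, 7.94 and 9.81 CPM in the controls and 16.7, 18.8 and 17.7 CPM in knockdown cells. The knockdown samples agreed closely and all lay above the controls. The log2 fold change was 0.91 (SE 0.21), and the adjusted p was 0.109 by edgeR and 0.0763 by DESeq2. Without RBMS1 knockdown replicate 1 it was called (adjusted p = 0.0645 by edgeR), as were 5.94% of all tested genes. Its neighbour Cyp2j9 on chromosome 4 had 1.12, 6.95 and 1.20 CPM in the controls and 0.863, 3.62 and 3.60 CPM in knockdown cells, and the groups overlapped. The high value of the controls was that of replicate 2, the smallest library.

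Cyp4v3 (ENSMUSG00000079057), a fatty acid hydroxylase, had 18.9, 28.8 and 27.01 CPM in the controls and 10.4, 13.2 and 15.0 CPM in knockdown cells, so that all knockdown samples were below all controls. Its log2 fold change was -0.94 (SE 0.24), with an adjusted p of 0.136 by edgeR and 0.0693 by DESeq2. The gene lies on chromosome 8 (45304944 to 45333216), where the log2 fold changes of 624 tested genes had their median at -0.38. After that median was subtracted in every sample, the log2 fold change of Cyp4v3 was -0.54 (adjusted p = 0.466 by edgeR). It was -0.53 with library sizes alone, and the groups then overlapped. Part of its exons (313 bases) is shared with Gm45753 on the same strand.

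For the other tested members of this group the samples overlapped between the groups with TMM factors. Cyp4f13, Cyp4f16 and Cyp4f17 lie together on chromosome 17 and belong to a subfamily of fatty acid and leukotriene hydroxylases. Cyp4f13 had a log2 fold change of 0.023, Cyp4f16 of 0.062 and Cyp4f17 of -0.31 (adjusted p = 0.980, 0.948 and 0.779 by edgeR). Cyp4f16 shared 26.7% and Cyp4f17 11.7% of its 31-base words with other genes, most of all with Cyp4f37 and Cyp4f16, so the division of reads among them is uncertain. These were the only tested members that shared more than 10%. Cyp2u1, a fatty acid hydroxylase, had 11.5, 9.93 and 9.12 CPM in the controls and 15.1, 11.6 and 9.91 CPM in knockdown cells (log2 fold change 0.25, adjusted p = 0.737 by edgeR). Its log2 fold change was 0.078 without RBMS1 knockdown replicate 1 and 0.39 without knockdown replicate 3. An annotated gene on the other strand, 4930534D22Rik, overlaps 548 bases of its exons and had 0 counts in every library.

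Cyp26b1, which breaks down retinoic acid, had 3.69, 7.94 and 2.41 CPM in the controls and 5.61, 6.08 and 12.8 CPM in knockdown cells. Knockdown replicate 3 was the highest, and control replicate 2 was above the other two knockdown samples. Its log2 fold change was 0.93 (SE 0.49, adjusted p = 0.480 by edgeR), and leaving out any 1 sample gave 0.43 to 1.44. Its relative Cyp26a1 had 4, 0 and 1 counts in the controls and 1, 1 and 4 in knockdown cells, a ratio of 0.579 (95% exact binomial interval 0.147 to 2.40). Cyp27b1, which activates vitamin D, had 5, 3 and 5 counts against 1, 15 and 12, a ratio of 1.04 (interval 0.521 to 2.19).

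Among the genes that act on cholesterol and its oxidized forms, Cyp7b1, an oxysterol hydroxylase, had 8.17, 7.44 and 4.99 CPM in the controls and 1.29, 7.36 and 5.73 CPM in knockdown cells. Knockdown replicate 1 alone was below the range of the controls. The log2 fold change was -0.49 (SE 0.53, adjusted p = 0.759 by edgeR), which became -0.057 when RBMS1 knockdown replicate 1 was left out and -0.89 when replicate 2 was. Cyp7b1 lies at 18071950 on chromosome 3, where the median over the first 50 Mb was -0.64, and with the regional median subtracted its log2 fold change was 0.12. Cyp39a1, another oxysterol hydroxylase, had 2.24, 3.97 and 1.38 CPM against 0.863, 3.27 and 1.61 CPM (log2 fold change -0.26, adjusted p = 0.911 by edgeR). Cyp46a1, the cholesterol hydroxylase of brain, was detected with 9, 3 and 9 counts in the controls and 7, 14 and 38 in knockdown cells, a ratio of 1.36 (95% exact binomial interval 0.812 to 2.35), or 1.69 with library sizes alone (interval 1.01 to 2.94). Cyp27a1, the mitochondrial sterol hydroxylase, had 3, 3 and 2 counts in the controls and 1, 0 and 0 in knockdown cells. It passed the detection rule only through the controls, so no ratio is given. The intervals cover counting error only and do not replace a test between samples.

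Cyp2ab1 and Cyp20a1 have no well established substrate. Cyp2ab1 had 11.1, 16.9 and 11.4 CPM in the controls and 33.6, 9.23 and 2.50 CPM in knockdown cells. The knockdown group thus held both the highest and the lowest sample. Its log2 fold change of 0.21 had an SE of 0.71 (adjusted p = 0.935 by edgeR) and became -1.15 without knockdown replicate 1. Cyp20a1 had 20.7, 16.9 and 21.9 CPM against 27.9, 20.6 and 26.6 CPM (log2 fold change 0.33, SE 0.20, adjusted p = 0.543 by edgeR). The log2 fold change of Cyp20a1 was 0.091 with chromosome medians subtracted and 0.68 with library sizes alone. Across the 16 tested members other than Cyp2e1, RBMS1 knockdown replicate 1 was the knockdown sample farthest from its group's median for 11 genes, replicate 2 for 3 and replicate 3 for 2. Among the controls, replicate 2 was the farthest for 8 genes, replicate 3 for 5 and replicate 1 for 3.

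**Figure D3:**
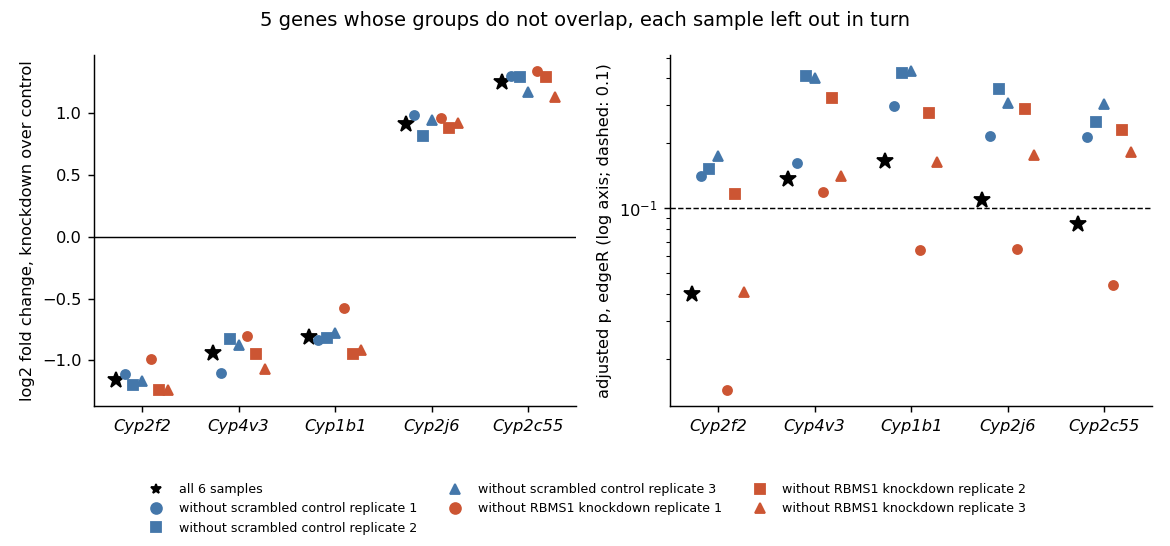
log2 fold change (left) and edgeR adjusted p (right, log axis, dashed line at 0.1) of the 5 P450 genes whose groups do not overlap, with all 6 samples (star) and with each sample left out (blue: a control, orange: a knockdown sample). The direction of all 5 genes is the same in every setting, while only Cyp2f2 (without knockdown replicate 1 or 3) and Cyp2c55, Cyp1b1 and Cyp2j6 (without knockdown replicate 1) fall at or below 0.1 when a sample is left out. Without knockdown replicate 1, 5.94% of all tested genes were called, and 0.101% to 0.997% in the other such fits.

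Of the 9 detected genes that did not pass the filter, 3 had no count in one of the groups. Cyp2d22, of a subfamily that oxidizes many drugs, had 4, 0 and 6 counts in the scrambled control and 0 in each knockdown sample. Control replicate 2 was also at 0 and the other controls were close to the limit of 3 counts a library, so no fold is given. Cyp4b1, a fatty acid and furan hydroxylase, had 4, 0 and 4 counts in knockdown cells and 0 in each control. Cyp4f18, a leukotriene hydroxylase on chromosome 8, had 3, 1 and 4 against 0. Both groups of Cyp4b1 and Cyp4f18 averaged under 3 counts a library, and no fold is given for them either.

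**Figure D4:**
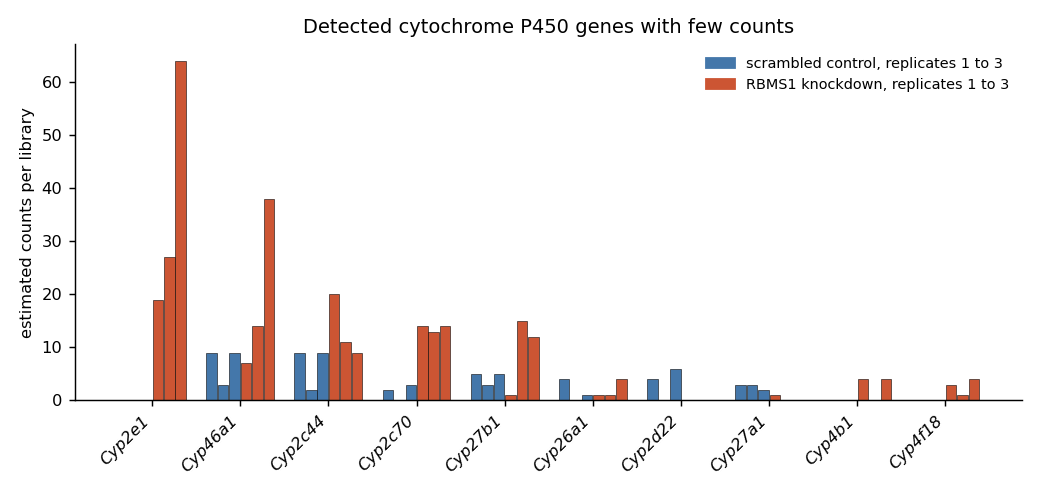
Estimated counts per library (bars, in the order of replicates 1 to 3) of Cyp2e1 and the 9 detected P450 genes below the filter on low counts, blue for scrambled control and orange for RBMS1 knockdown. Bars are not scaled for library size, which is largest in knockdown replicate 3. Cyp2e1, Cyp2c70 and Cyp4f18 are higher in all 3 knockdown libraries than in any control, and Cyp2d22 is seen in controls only.

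The genes that work with the P450s were taken from 9 hand-written lists with 147 genes, of which 98 were tested. None of the 98 was called by edgeR at an adjusted p of 0.1, where 1.22% of all tested genes were, and 12 had an unadjusted p under 0.05, where 12.4% of all tested genes did. DESeq2 called 4 of the 106 list genes to which it gave an adjusted p, and 3.22% of all such genes. The median log2 fold change of the 98 genes was -0.035, with 56 below 0.

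The electron donors of the P450s had 11 tested genes with a median log2 fold change of -0.16, 8 of them below 0. With library sizes alone, Por, Cyb5a, Cyb5r3, Fdx1, Fdx1l and Fdxr turned to values above 0, between 0.11 and 0.33. Por, the P450 oxidoreductase, had 268, 293 and 249.7 CPM in the controls and 318, 208 and 239 CPM in knockdown cells, with overlapping groups (log2 fold change -0.085, adjusted p = 0.897 by edgeR). The other donor of the endoplasmic reticulum, Cyb5a (cytochrome b5), had a log2 fold change of -0.24 (adjusted p = 0.661 by edgeR), and its reductase Cyb5r3 one of -0.29 (adjusted p = 0.577 by edgeR). Cyb5b, the cytochrome b5 of the outer mitochondrial membrane, had 477, 488 and 602 CPM in the controls and 401, 217 and 228 CPM in knockdown cells. All knockdown samples were below the controls, at a log2 fold change of -0.89 (SE 0.25, adjusted p = 0.169 by edgeR and 0.0270 by DESeq2). Its groups overlapped with library sizes alone, at a log2 fold change of -0.52. It lies on chromosome 8, as Cyp4v3 does. Pgrmc2, a heme-binding partner of the P450s, did not overlap either (log2 fold change -0.55, adjusted p = 0.248 by edgeR), and its log2 fold change was 0.065 with the regional median of the start of chromosome 3 removed and -0.17, with overlap, with library sizes alone. The log2 fold changes of the mitochondrial donors Fdx1, Fdx1l and Fdxr were -0.062, -0.16 and -0.22, and those of Pgrmc1, Cyb5r1 and Cyb5r4 were 0.21, 0.48 and 0.44, all with an adjusted p above 0.5 by edgeR and overlapping groups.

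Of the 12 genes of heme synthesis and breakdown, 9 had a log2 fold change below 0 (median -0.090) and 0 were called by edgeR or DESeq2. Alas1, the rate-limiting enzyme of heme synthesis, had 121, 127 and 114 CPM in the controls and 104, 83.7 and 81.1 CPM in knockdown cells, below each control (log2 fold change -0.43, SE 0.15, adjusted p = 0.286 by edgeR). Its groups overlapped with library sizes alone, at a log2 fold change of -0.043. Hmox1, the heme oxygenase, had a log2 fold change of -0.17 with overlapping groups (adjusted p = 0.875 by edgeR). The regulators of P450 genes had 15 of 26 tested, with a median of -0.019. The most abundant were Pparg, the receptor of rosiglitazone (log2 fold change -0.31, adjusted p = 0.554 by edgeR), and Srebf2, which controls cholesterol synthesis genes such as Cyp51 (-0.045, adjusted p = 0.948 by edgeR). The aryl hydrocarbon receptor battery outside the P450s had 5 tested genes, each with a log2 fold change below 0 (median -0.44), with 0 called by edgeR or DESeq2 and overlapping groups for each. Its most abundant genes, Tiparp and Ugt1a6a, had log2 fold changes of -0.31 and -0.014, and both turned to values above 0 with library sizes alone (0.069 and 0.31).

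The 8 tested retinoid genes had a median of 0.11, and the most abundant, the retinal reductase Dhrs3 and the retinol dehydrogenase Dhrs9, had log2 fold changes of 0.11 and 0.12 with overlapping groups. Of the 8, 3 had an unadjusted p under 0.05 by edgeR, the alcohol dehydrogenases Adh1 (-1.63) and Adh7 (-0.75), both lower without overlap, and the retinol dehydrogenase Rdh10 (0.76), with overlap. These 3 genes are named after their values were seen. Over all tested genes 12.4% had an unadjusted p under 0.05 by edgeR, and 9.55% were lower without overlap. In the sterol and bile acid list, 14 genes were tested with a median of -0.033, and Msmo1, which acts after Cyp51 in cholesterol synthesis, and the sterol carrier Scp2 had log2 fold changes of -0.095 and -0.27. The 8 steroid hormone genes had a median of -0.0017, and Hsd17b12 and Hsd11b1, which regenerates active glucocorticoid, both had one of 0.21. The 8 epoxide hydrolase and eicosanoid genes had a median of 0.14 with 1 below 0. The epoxide hydrolases Ephx1 and Ephx2, which open the epoxides that P450s form, had overlapping groups, with log2 fold changes 0.15 and 0.31 (SE 0.14 and 0.17, adjusted p = 0.721 and 0.490 by edgeR). The 17 conjugating enzymes had a median of -0.057, and Mgst1 and Gstp1, both glutathione transferases, had log2 fold changes of -0.26 and -0.17. The knockdown samples of Gstp1 lay below all controls, at 172, 168 and 144 CPM against 179, 187 and 180.1 CPM, while with library sizes alone its log2 fold change turned to 0.20. The 4 genes of these lists called by DESeq2 were Cyb5b, Adh1, Hsd17b10 and Gstm1, all lower in each knockdown sample than in any control with TMM factors, and with library sizes alone only Adh1 was. They are named here after their values were seen, and their adjusted p by edgeR was between 0.111 and 0.169.

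**Figure D5:**
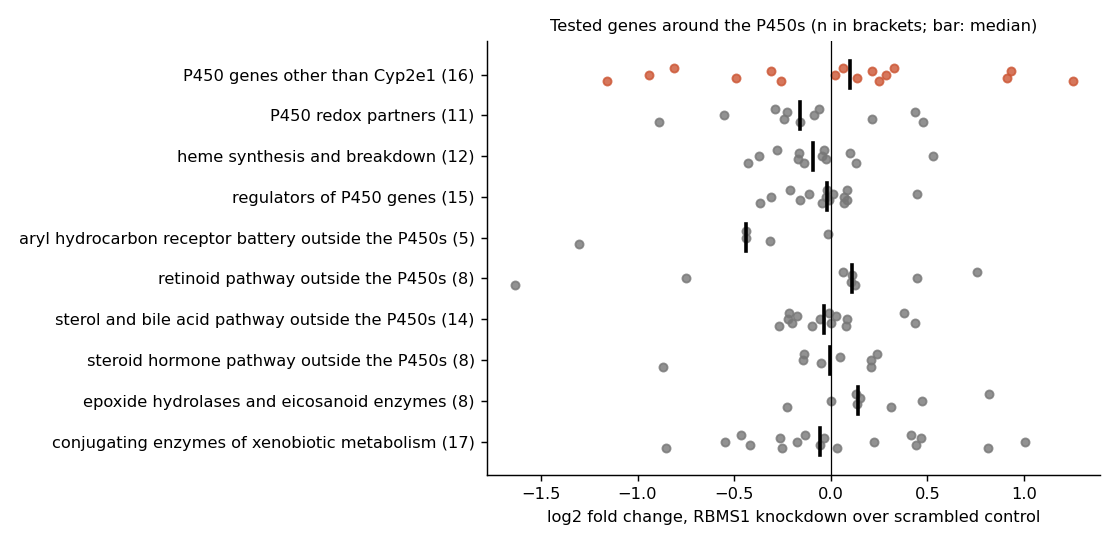
log2 fold change of RBMS1 knockdown over scrambled control for each tested gene (points) of the P450 family without Cyp2e1 and of the 9 lists around it, with the list median as a black bar and the number of genes in brackets. The 16 P450 genes reach from -1.16 to 1.25, and the medians of the lists lie between -0.44 and 0.14.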

How the data were processed

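The deposited table holds estimated counts per gene for 6 samples. According to the study's methods and the submitters' processing notes, the authors built stranded total RNA libraries, trimmed the reads with Trim Galore 0.6.7, mapped them against GRCm38 using STAR 2.7.10a, and took gene counts from Salmon 1.9.0 without normalization. The annotation release and the strand setting are not given in the sources used here. The counts were rounded, and all genes were fitted on condition alone with edgeR 4.0.16 in R 4.3.3, using filterByExpr, TMM factors and the quasi-likelihood F test with the newer dispersion estimates. P-values were adjusted over all tested genes (Benjamini-Hochberg). A gene was called at 0.1, the cut-off in the study's Results. Its Methods give 0.05, and calls at that level were counted too. SEs follow from the log2 fold change and the F statistic. The scripts were tested on simulated data. No permutation test was run, as 3 samples against 3 cannot reach a p under 0.1. DESeq2 1.42.0 was an alternative.

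The members, gene lists and tests were chosen with earlier results of these data known. Named are all detected members, Rbms1, the tested electron donors, and of each other list the called genes or, where none was called, the 2 most abundant. For genes under the filter, ratios are pooled counts per unit of TMM-scaled library size with 95% exact binomial intervals. Positions, exon lengths and 31-base words come from GENCODE M21 (GRCm38), which held all 95 members, and upstream windows from RefSeq (GRCm38.p6), where 74 members matched by symbol.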

Additional observations from a re-analysis of the deposited data

How the results depend on the processing

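Of the P450 genes other than Cyp2e1, 2 were called by edgeR, and 2 were also called with RLE size factors, a filter of 1 CPM, no filter, or the earlier quasi-likelihood estimates (an alternative chosen after seeing the data, as were the overlap of groups, the family sum and the counting ratios with library sizes alone). In these alternatives 1.07% to 1.38% of all tested genes were called. DESeq2 called 5, and 3.22% of all genes to which it gave an adjusted p. Subtraction of chromosome medians left 1 (0.621% of all tested genes), and library sizes alone left 1 (1.1%). Leaving out 1 sample gave 0 to 4, with 4 only without RBMS1 knockdown replicate 1, where 5.94% of all tested genes were called. In the other 5 such fits 0.101% to 0.997% were called. Of the genes in the 9 lists around the family, 0 were called by edgeR, 4 by DESeq2, 3 without a filter on low counts, and 0 to 7 with 1 sample left out, with 7 only without RBMS1 knockdown replicate 1. The number of detected members was 37 with 1 count in 1 sample, 18 with 10 counts in 3 samples, and 23 to 26 with 1 sample left out. Cyp2f2, Cyp2c55, Cyp2j6, Cyp1b1 and Cyp4v3 kept their direction in every setting. The cause of these changes was not tested.

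With the replicate number as a block (replicate block), 0 P450 genes were called, where 0.341% of all tested genes were. The edgeR adjusted p was then 0.120 for Cyp2f2 and 0.220 for Cyp2c55. The deviations of same-numbered samples from their group means correlated at -0.14, 0.078 and -0.028. Those of differently numbered samples correlated at -0.17 to 0.21. With 3 samples per group these values cannot settle whether same-numbered samples were paired. The block turned the log2 fold change of Cyp2ab1 to -0.46, of Cyp4f13 to -0.0050, of Dhrs3 to -0.016 and of Dhrs9 to -0.067.

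Of the log2 fold changes of single genes, 61 turned sign under an alternative and 597 kept direction and side of the threshold. With DESeq2, Cyp2j9 was at -0.029, and with no filter Ugt1a6a was at 0.00038. With chromosome medians subtracted, values were 0.12 for Cyp7b1, 0.065 for Pgrmc2, 0.22 for Hmox1, 0.019 for Srebf2, 0.30 for Msmo1, -0.029 for Hsd11b1, -0.094 for Ephx1 and 0.17 for Fabp4. Library sizes alone raised the median of all tested genes by 0.37, and values were then 0.12 for Cyp39a1, 0.12 for Cyp4f17, 0.31 for Por, 0.14 for Cyb5a, 0.11 for Cyb5r3, 0.33 for Fdx1, 0.22 for Fdx1l, 0.12 for Fdxr, 0.16 for Hmox1, 0.080 for Pparg, 0.30 for Srebf2, 0.069 for Tiparp, 0.31 for Ugt1a6a, 0.25 for Msmo1, 0.11 for Scp2, 0.10 for Mgst1 and 0.20 for Gstp1. Leaving out 1 sample gave -0.015 to 0.46 for Cyp51, -0.34 to 1.25 for Cyp2j9, -1.15 to 0.73 for Cyp2ab1, -0.83 to 0.081 for Cyp39a1, -0.23 to 0.20 for Cyp4f13, -0.039 to 0.16 for Cyp4f16, -0.57 to 0.057 for Cyp4f17, -0.27 to 0.057 for Por, -0.31 to 0.092 for Fdx1, -0.54 to 0.071 for Fdx1l, -0.45 to 0.16 for Hmox1, -0.18 to 0.094 for Srebf2, -0.19 to 0.17 for Ugt1a6a, -0.36 to 0.40 for Dhrs3, -0.42 to 0.49 for Dhrs9, -0.34 to 0.14 for Msmo1, -0.034 to 0.37 for Hsd17b12 and -0.16 to 0.43 for Hsd11b1. Depth limits the genes under the filter, which had at most 59 counts in a group of 3 libraries.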
